A study of Mus musculus with 12 samples.

Results

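Interferon-stimulated genes and genes of class I antigen presentation were examined in mouse heart ventricles with and without LCHADD. This deficiency of long-chain 3-hydroxyacyl-CoA dehydrogenase blocks a step of the mitochondrial breakdown of long-chain fatty acids. The group is a list of 36 genes set by name, chosen with earlier results of these data known. Each was required to reach a value of 10 in 3 or more of the 12 libraries. All 36 met that rule, out of 13865 genes that met it and 51912 in the deposited table, and all 36 had at least 10 in all 12 libraries, so none entered through 1 group alone. RNA from fresh ventricle tissue was sequenced in 12 libraries, 3 each of WT females, LCHADD females, WT males and LCHADD males. All were untreated. The labels give the genotype only as WT or LCHADD, name no allele, strain or age, and do not say whether animals were pooled or whether libraries came from separate animals, so p-values measure the spread between these libraries, which may be technical. Ventricle tissue holds cardiomyocytes, vessels, fibroblasts and resident leukocytes together. The 7 defining cardiomyocyte markers (Myh6, Tnnt2, Tnni3, Actc1, Ryr2, Myl2 and Mybpc3) were present throughout, with 533896 to 949938 summed normalised reads in the 6 LCHADD libraries and at least 979046 in each of the 6 WT libraries. In the LCHADD comparison 5 of the 7 were lower in females (median log2 change -0.66), where 17.2% of all tested genes were lower. In males 1 of the 7 was lower (-0.16), where 7.77% of all tested genes were. The part of this in the results below was not tested.

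Interferons are secreted proteins that warn cells of infection or of misplaced nucleic acid. Type I interferons bind the receptor IFNAR and, through Janus kinases, assemble a complex that holds STAT2 and IRF9 and binds the interferon-stimulated response element (ISRE) of its target genes. Interferon gamma acts at the gamma-activated sequence (GAS), and through IRF1, which also binds ISRE-like DNA. The targets include RNA sensors, antiviral proteins, the guanylate-binding proteins, and the machinery that loads peptides onto class I molecules. Tissues free of infection, the heart among them, keep a low, constant level of these genes.

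The response element can be read in the promoters of the group. The stretches below are shown because the ISRE is the letters by which interferon signalling finds its targets, 1 gene for each role in which a member held it. Within a role, the gene shown is the member with a match that had the largest mean change in LCHADD, whatever its sign. A match is a run of letters and not a measured binding site. They are RefSeq sequences of build GRCm38.p6, printed 5′ to 3′ on the strand of the gene, all from the 250 bases before the annotated start. Capitals mark each match to the ISRE core, which is GAAA, any 2 bases, then GAAA, and which on the opposite strand reads TTTC, any 2 bases, then TTTC.
Isg15, chr4:156200850-156200921, minus strand: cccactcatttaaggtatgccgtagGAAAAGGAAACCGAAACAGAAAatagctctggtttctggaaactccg
Stat2, chr10:128270251-128270310, plus strand: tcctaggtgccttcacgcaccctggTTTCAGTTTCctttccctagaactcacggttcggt
Bst2, chr8:71537562-71537627, minus strand: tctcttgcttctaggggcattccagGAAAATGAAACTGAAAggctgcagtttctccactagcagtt
Gbp3, chr3:142559974-142560039, plus strand: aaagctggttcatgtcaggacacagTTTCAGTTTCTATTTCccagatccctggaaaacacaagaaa
B2m, chr2:122147523-122147582, plus strand: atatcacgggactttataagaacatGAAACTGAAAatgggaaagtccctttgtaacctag
Isg15 held 3 overlapping matches between 78 and 57 bases before the start, Bst2 held 2 overlapping ones between 130 and 115 bases, and Gbp3 held 2 overlapping ones between 45 and 30 bases. B2m had 1 match from 139 to 130 bases before the start, and Stat2 had 1 from 222 to 213 bases.

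Promoters were found in the table for 26 of the 36 genes. No entry was matched for Dhx58, Parp14, Ifi27, Gbp6, Gbp9, Parp9, Usp18, Gbp4, Nlrc5 and Rtp4. The ISRE core, searched on both strands, lay in the 250 bases before the start in 12 of 26 members (46.2%) and in 331 of the 10419 tested genes with a promoter (3.18%). The 12 were Isg15, Stat2, Bst2, B2m, Gbp2, Gbp3, Gbp5, Gbp7, Ifit1, Ifit3, Oas1a and Rsad2. The GAS core, searched as TTC, any 3 bases, then GAA, which reads the same on both strands, lay in 6 of 26 (23.1%) and in 7.16% of the tested genes, and in Bst2 it overlapped the ISRE match. Its 6 genes were Irf1, Gbp5, Gbp7, Oas1a, Bst2 and Ifit2. These genes were listed as interferon targets, so the share with a motif describes the list and is no result about LCHADD. Of the 12 members with an ISRE match, 6 were lower in LCHADD, averaged over the sexes, and of the 14 without a match 8 were lower and 1 was higher. In that comparison 20.6% of all tested genes were lower and 20.3% higher. The median log2 change was -0.35 with a match and -0.39 without.

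The libraries held 15.6 to 23.2 M reads assigned to genes. In females the depth did not overlap, at 20.8 to 23.2 M in WT and 16.7 to 19.0 M in LCHADD. In males it was 15.6 to 21.3 M and 17.5 to 18.8 M. The part of depth in the results below was not tested. Mitochondrially encoded genes took 27.5 to 32.7% of the reads in WT and 31.0 to 37.9% in LCHADD. The normalised values (read counts divided by a size factor for each library) were compared as log2 of the value plus 1 with limma over all 13865 genes. The threshold was a p of 0.05 after Benjamini-Hochberg adjustment. Hadha encodes the enzyme, and its reads would not show a change within its sequence, so they check the labels only in part. Hadha had 22319 ± 851 normalised reads in WT females and 24829 ± 1292 in LCHADD females, and 24454 ± 1256 and 27728 ± 407 in males, where ± is the SD over the 3 libraries of a group (n = 3), here and throughout. Its mean log2 change was 0.17 (SE 0.05, adjusted p = 0.013).

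The comparison of LCHADD with WT asks how the ventricle's transcripts differ in the deficiency. Most of the group was lower in LCHADD. Its members were chosen with earlier results of these data known, so the counts describe the list and are no independent test. Averaged over the sexes, 21 of 36 members were lower and 1, Ifit2, was higher, while 20.6% of all tested genes were lower and 20.3% higher. All 7 guanylate-binding protein genes and all 5 class I genes were among the 21, and 3 of the 12 antiviral effectors. The log2 change, LCHADD minus WT, had a median of -0.40 over the members and -0.0019 over all tested genes, and ran from -0.83 (Gbp3) to 0.48 (Ifit2). In females 18 members were lower and 1 was higher, against 17.2% and 16.7% of all tested genes. In males 5 were lower and 1 was higher, against 7.77% and 7.71%. These shares of all tested genes are the background for the counts by role below. The change was below 0 in both sexes for 32 members, above 0 in both for Ifit2, and of opposite sign in the sexes for Rsad2, Ifi44 and Rtp4. The comparisons in the sexes share no library, but they share the estimate of the spread, and the mean is made of both. Scaling by the reads of nuclear genes, because the mitochondrial share differed between the genotypes, turned the background in females from 2314 higher and 2378 lower genes to 2884 and 1953 (20.8% and 14.1%), and left 14 members lower and 2 higher. The counts moved with single libraries. Without WT female 2, 9 members were lower in females, where 13.5% of all tested genes were. In males 2 of the 36 were lower without WT male 2 or without LCHADD male 1, a share of 5.56% beside 5.34% and 4.70% of all tested genes, which is near the background. The male count was 8 without LCHADD female 3 (9.48% of all tested genes lower) and 9 without LCHADD female 2 (12.1%). Without both LCHADD female 2 and WT female 3, the lower members numbered 11 in females, 9 in males and 21 over both, where 14.1%, 12.2% and 19.8% of all tested genes were lower. The female calls lost there were those of Usp18 (0.24), B2m (0.12), Irf9 (0.12), Parp14 (0.10), Gbp4 (0.077), Tap1 (0.067) and Gbp6 (0.053), with adjusted p in brackets, and Tap1 was also lost in the mean (0.058).

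The same lean is seen without a test in the ranges, which are another reading of the same values and not separate support. The 3 LCHADD females lay below all 3 WT females for 20 members and above them for 1, where 22.3% of all tested genes lay below and 22.2% above. In males 19 lay below and 1 above, against 19.3% and 19.6%. With both sexes together, all 6 LCHADD libraries lay below all 6 WT libraries for 12 members, Ifih1, Usp18, Bst2, Ifi27, Parp14, Gbp2, Gbp3, Gbp5, Gbp7, Gbp9, H2-K1 and H2-D1, and above them for Ifit2. That was so for 9.91% of all tested genes below and 9.82% above.

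**Figure D1:**
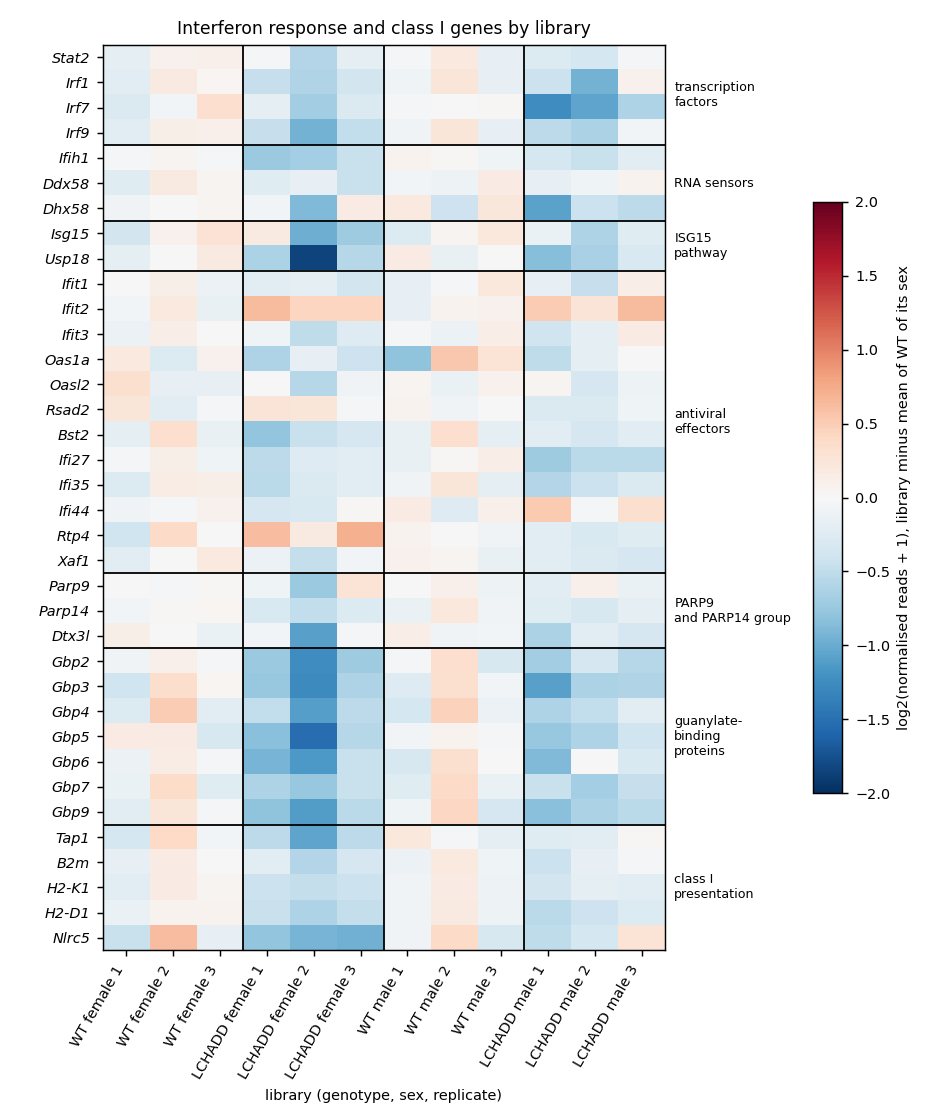
Each row is a gene, grouped by role, and each column a library; the colour is log2(normalised reads + 1) minus the mean of the 3 WT libraries of the same sex. The LCHADD columns are mostly blue, most of all in the 7 rows of guanylate-binding proteins and in LCHADD female 2, and the row of Ifit2 is red in all 6 LCHADD libraries.

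Levels were compared between members per kilobase of annotated exon, in WT. B2m, the light chain shared by all class I molecules, had 3297 normalised reads per kb over the 6 WT libraries, the class I heavy chains H2-D1 and H2-K1 had 1040.2 and 747, Bst2 had 258 and Ifi27 had 205. The other 31 members lay between 7.04 (Ifi44) and 94.1 (Gbp2). So 3 class I genes stood above a set of genes at a low level, in LCHADD (2696, 755 and 583 per kb) as in WT.

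The guanylate-binding proteins are large GTPases that gather on the membranes of pathogens and their vacuoles, and their genes are classic targets of interferon gamma. All 7 were lower in females, 2 of them (Gbp3 and Gbp9) were lower in males, and all 7 were lower in the mean of both sexes. Gbp2 had 231, 260.1 and 240.5 normalised reads in the 3 WT females and 145, 103 and 149 in the LCHADD females, and 222, 286 and 182 in the WT males and 139.6, 179 and 151 in the LCHADD males. All 6 LCHADD libraries lay below all 6 WT libraries. Its log2 change was -0.89 (SE 0.18, adjusted p = 0.0012) in females, -0.53 (SE 0.18, adjusted p = 0.052) in males and -0.71 (SE 0.12, adjusted p = 3.2e-04) in the mean. Gbp9 had 269, 369 and 305 normalised reads in the 3 WT females and 178, 144 and 213 in the LCHADD females, and 309, 438 and 259 in the WT males and 182, 212 and 224 in the LCHADD males. Here too the genotypes did not overlap in either sex, and WT male 2 was the highest library. Gbp9 changed by -0.82 (SE 0.19, adjusted p = 0.0035) in females and by -0.67 (SE 0.19, adjusted p = 0.024) in males. Gbp3 had 145, 245 and 198 normalised reads in the 3 WT females and 113, 78.6 and 125 in the LCHADD females, and 158, 239 and 182 in the WT males and 89.6, 123 and 125 in the LCHADD males. The ranges stood apart in both sexes. Gbp3, the largest fall of the group in the mean, changed by -0.88 (SE 0.22, adjusted p = 0.0067), -0.77 (SE 0.22, adjusted p = 0.029) and -0.83 (SE 0.16, adjusted p = 6.8e-04) in females, males and the mean.

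Gbp5 had 157, 158 and 112 normalised reads in the 3 WT females and 78.7, 48.5 and 94.0 in the LCHADD females, and 121, 132 and 124 in the WT males and 74.0, 81.3 and 94.5 in the LCHADD males. Gbp5, which promotes inflammasome assembly, was lowest in LCHADD female 2, and no LCHADD library reached a WT library. The log2 change was -0.97 (SE 0.22, adjusted p = 0.0028) in females and -0.59 (SE 0.22, adjusted p = 0.077) in males. Gbp4, Gbp6 and Gbp7 changed by -0.70, -0.84 and -0.60 in females (adjusted p = 0.036, 0.011 and 0.018), and their values in males were -0.44, -0.39 and -0.53 (adjusted p = 0.24, 0.28 and 0.062). The 7 genes sum to 1504 ± 254 normalised reads in WT females and 859.7 ± 171 in LCHADD females, and to 1465 ± 328 and 976 ± 104 in males (SD, n = 3). These genes are close copies of each other in 2 clusters, so reads may have been shared between them. Without WT female 2 the female calls of Gbp4 (adjusted p = 0.18) and Gbp7 (0.10) were lost, as was that of Gbp4 without LCHADD female 2 (0.11). In males Gbp3 was lost without WT male 2 (0.13), WT male 3 (0.070) or LCHADD male 1 (0.13), and Gbp9 without WT male 1 (0.055), WT male 2 (0.12), LCHADD male 1 (0.11) or LCHADD male 2 (0.053). In the other direction, the male call of Gbp2 was gained without LCHADD female 2 (0.012), LCHADD female 3 (0.038), WT male 3 (0.029) or LCHADD male 2 (0.049), that of Gbp5 without LCHADD female 2 (0.012) or LCHADD female 3 (0.043), and that of Gbp7 without WT female 2 (0.044), LCHADD female 2 (0.028) or LCHADD female 3 (0.049).

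**Figure D2:**
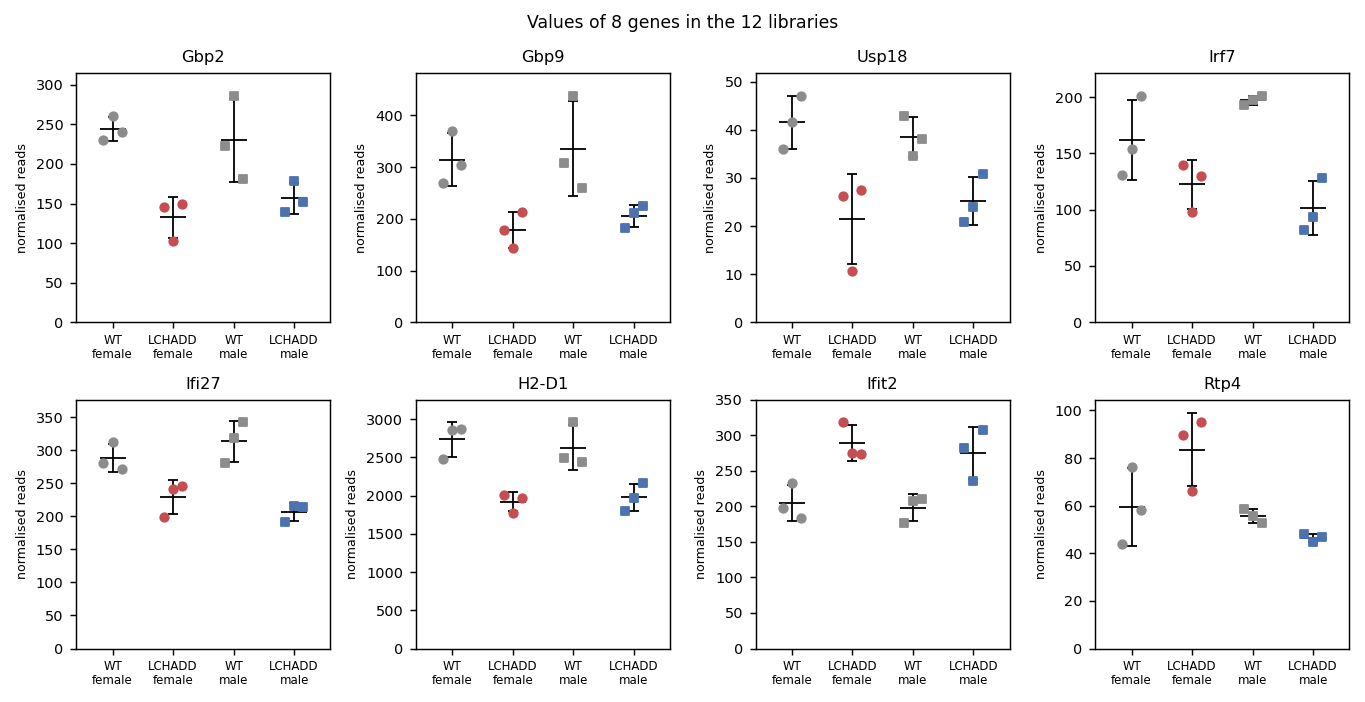
Normalised reads of 8 genes, 1 point per library (circles, females; squares, males; grey, WT; colour, LCHADD), with the group mean and SD as black bars and the vertical axis from 0. Gbp2, Gbp9, Usp18, Ifi27 and H2-D1 lie lower in LCHADD with no overlap in either sex, Ifit2 lies higher, Irf7 is apart in males only, and Rtp4 leans to opposite sides in the sexes.

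Class I molecules show peptides from inside the cell to CD8 T cells. The 5 members are the heavy chains H2-K1 and H2-D1, the light chain B2m, the peptide transporter subunit Tap1, and Nlrc5, the transactivator of class I genes. All 5 were lower in females and in the mean of both sexes, and H2-D1 alone passed in males. H2-D1 had 2477, 2858 and 2875 normalised reads in the 3 WT females and 2009.9, 1775 and 1969 in the LCHADD females, and 2490.1, 2960.4 and 2436 in the WT males and 1802, 1963 and 2162 in the LCHADD males. The genotypes did not overlap in either sex. Its log2 change was -0.51 (SE 0.10, adjusted p = 8.0e-04) in females, -0.41 (SE 0.10, adjusted p = 0.0090) in males and -0.46 (SE 0.07, adjusted p = 7.1e-05) in the mean, the smallest adjusted p of the group. H2-K1 had 1952, 2581 and 2393 normalised reads in the 3 WT females and 1705, 1653 and 1694 in the LCHADD females, and 1982, 2323 and 1945 in the WT males and 1608, 1828 and 1792 in the LCHADD males. Its LCHADD libraries were also all below the WT ones, with a log2 change of -0.45 (SE 0.10, adjusted p = 0.0030) in females, while in males the change was -0.25 (SE 0.10, adjusted p = 0.099). B2m had 2655, 3337 and 2959 normalised reads in the 3 WT females and 2562, 1987 and 2365 in the LCHADD females, and 2478, 3063 and 2522 in the WT males and 1988, 2387 and 2624 in the LCHADD males. The B2m ranges were apart in females and overlapped in males, where LCHADD male 3 exceeded WT males 1 and 3. B2m changed by -0.37 (SE 0.12, adjusted p = 0.028) in females and by -0.29 (SE 0.09, adjusted p = 0.014) in the mean, and its value in males was -0.21 (SE 0.12, adjusted p = 0.28).

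Nlrc5 had 71.2, 149 and 86.4 normalised reads in the 3 WT females and 55.8, 50.5 and 49.6 in the LCHADD females, and 85.7, 117 and 71.8 in the WT males and 62.5, 69.8 and 108 in the LCHADD males. The fall of Nlrc5 in females was among the larger ones of the group, -0.89 (SE 0.27, adjusted p = 0.019), and in males the groups overlapped, with a change of -0.20 (SE 0.27, adjusted p = 0.67). The log2 change of Tap1 was -0.70 (SE 0.20, adjusted p = 0.013) in females, from 174 ± 47.1 to 106 ± 20.9 normalised reads, and -0.14 (SE 0.20, adjusted p = 0.68) in males. H2-K1 and H2-D1 are near copies of each other and of other class I genes, so the split of reads between them is uncertain. WT female 2 was the highest female library for Nlrc5, Tap1, B2m and H2-K1. Without it the female calls of Nlrc5 (adjusted p = 0.11), Tap1 (0.078) and B2m (0.13) were lost, and B2m was also lost without WT female 3 (0.065) or LCHADD female 2 (0.079). In the mean of both sexes Nlrc5 was lost without WT female 2 (0.089), WT male 1 (0.0504), WT male 2 (0.087), LCHADD male 1 (0.084) or LCHADD male 2 (0.069), and Tap1 without WT female 2 (0.075), WT male 1 (0.070), LCHADD male 1 (0.059) or LCHADD male 2 (0.053). H2-D1 in males was lost without WT male 2 (0.051) or LCHADD male 1 (0.054).

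Among the transcription factors, Irf9 and Stat2 belong to the complex that type I interferon activates, Irf7 amplifies the interferon response, and Irf1 serves interferon gamma. In the mean of both sexes 3 of 4 were lower, Irf1, Irf7 and Irf9. Irf7 had 131, 154 and 201 normalised reads in the 3 WT females and 140.0, 98.1 and 129.9 in the LCHADD females, and 193, 197 and 201 in the WT males and 82.3, 93.9 and 129 in the LCHADD males. In males the genotypes stood far apart, the 3 WT libraries being within a narrow range, and in females they overlapped. The log2 change of Irf7 was -0.97 (SE 0.19, adjusted p = 0.0032) in males, the largest male fall of the group, -0.39 (SE 0.19, adjusted p = 0.13) in females and -0.68 (SE 0.14, adjusted p = 9.3e-04) in the mean. Irf9 had 185, 236 and 231 normalised reads in the 3 WT females and 156, 112 and 154 in the LCHADD females, and 181, 226 and 171 in the WT males and 132, 124 and 183 in the LCHADD males. LCHADD females were below WT females, and in males LCHADD male 3 was above WT males 1 and 3. Irf9 changed by -0.63 (SE 0.18, adjusted p = 0.013) in females and its value in males was -0.41 (SE 0.18, adjusted p = 0.14). Irf1 changed by -0.45 (SE 0.14, adjusted p = 0.020) in the mean, from 301 ± 41.2 to 215 ± 17.2 in females and from 271 ± 41.8 to 208 ± 73.4 in males (SD, n = 3), with no call in either sex in the fit of all 12 libraries and one in females with the female libraries alone (adjusted p = 0.035). Stat2 was at 195 ± 22.1 and 162 ± 30.6 in WT and LCHADD females and at 214 ± 27.1 and 183 ± 20.3 in males, a mean change of -0.25 (SE 0.11, adjusted p = 0.086). Irf9 in females was lost without WT female 2 (adjusted p = 0.056) or WT female 3 (0.051), and Irf1 in the mean without WT female 2 (0.052) or WT male 2 (0.057). Irf1 was gained in females without LCHADD male 2 (0.033) or LCHADD male 3 (0.033), and in males without LCHADD male 3 (0.025). Stat2 was gained in the mean without LCHADD female 1 (0.043).

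The RNA sensors are Ifih1 (MDA5), which binds long double-stranded RNA, Ddx58 (RIG-I), which binds short RNA with triphosphate ends, and Dhx58 (LGP2), which tunes the other sensors. Only Ifih1 of the 3 passed. Ifih1 had 131, 139 and 131 normalised reads in the 3 WT females and 79.8, 83.5 and 98.2 in the LCHADD females, and 136, 132 and 122 in the WT males and 102, 95.0 and 110.4 in the LCHADD males. Every LCHADD library was below every WT library. The log2 change of Ifih1 was -0.62 (SE 0.13, adjusted p = 0.0026) in females, -0.34 (SE 0.13, adjusted p = 0.10) in males and -0.48 (SE 0.10, adjusted p = 9.6e-04) in the mean. Ddx58 had 159.8 ± 23.2 and 130.1 ± 12.6 in females and 149 ± 15.3 and 143 ± 11.9 in males, a mean change of -0.17 (SE 0.10, adjusted p = 0.19) that did not pass. Dhx58 was the scarcest, at 18.5 to 29.4 in WT and 10.7 to 23.2 in LCHADD, and its mean change, -0.47 (SE 0.23, adjusted p = 0.12), did not pass.

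Isg15 encodes a ubiquitin-like modifier and Usp18 the protease that removes it and that also damps the type I receptor. Usp18 had 36, 41.6 and 47.1 normalised reads in the 3 WT females and 26.2, 10.7 and 27.5 in the LCHADD females, and 42.8, 34.5 and 38.1 in the WT males and 20.8, 24 and 30.7 in the LCHADD males. The genotypes did not overlap in either sex, and LCHADD female 2 was the lowest library. The log2 change of Usp18 was -1.02 (SE 0.32, adjusted p = 0.021) in females, the largest female fall of the group, -0.60 (SE 0.32, adjusted p = 0.22) in males and -0.81 (SE 0.22, adjusted p = 0.0090) in the mean. Isg15 had 37.6, 52.0 and 59.9 normalised reads in the 3 WT females and 55.8, 24.3 and 29.6 in the LCHADD females, and 37.8, 48.1 and 53.6 in the WT males and 41.7, 29.8 and 38.7 in the LCHADD males. Isg15 overlapped in both sexes, since LCHADD female 1 was above WT females 1 and 2 and LCHADD males 1 and 3 were above WT male 1. Its mean change was -0.42 (SE 0.21, adjusted p = 0.12). The female call of Usp18 was lost without WT female 2 (adjusted p = 0.056), WT female 3 (0.074) or LCHADD female 2 (0.10). Without LCHADD female 1, Isg15 passed in females (0.031) and in the mean (0.020).

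The antiviral effectors were mixed. Of 12, 3 were lower (Bst2, Ifi27 and Ifi35), 1 was higher (Ifit2) and 8 did not pass in the mean of both sexes. Of all tested genes 20.6% were lower and 20.3% higher, so the lower count is near the background. Ifit1, Ifit2 and Ifit3 encode proteins that bind viral RNA and lie side by side in the genome, and of the 3 only Ifit2 passed. Ifit2 had 197, 233 and 184 normalised reads in the 3 WT females and 318, 275 and 274 in the LCHADD females, and 176, 207 and 210.2 in the WT males and 282, 236 and 307 in the LCHADD males. All LCHADD libraries were above all WT libraries. Ifit2 changed by 0.50 (SE 0.13, adjusted p = 0.0091) in females, 0.47 (SE 0.13, adjusted p = 0.025) in males and 0.48 (SE 0.09, adjusted p = 7.7e-04) in the mean. Ifit1 had 68.3 ± 5.63 and 57.4 ± 3.97 in WT and LCHADD females and 73.0 ± 9.85 and 65.6 ± 13.5 in males, and Ifit3 had 109.5 ± 9.77 and 90.1 ± 13.1, and 116 ± 10.7 and 106 ± 21.5 (SD, n = 3). Their mean changes were -0.21 (SE 0.13, adjusted p = 0.23) and -0.21 (SE 0.12, adjusted p = 0.18). The ISRE core occurred before the start of Ifit1 and Ifit3, while the Ifit2 window held a GAS core and no ISRE core. Ifit2 in males was lost without WT male 1 (adjusted p = 0.11), LCHADD male 1 (0.089) or LCHADD male 3 (0.10).

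Ifi27, a small protein of mitochondrial and nuclear membranes, was lower in both sexes. Ifi27 had 280.2, 313 and 272 normalised reads in the 3 WT females and 199, 242 and 246 in the LCHADD females, and 281, 318 and 342 in the WT males and 191, 215 and 214 in the LCHADD males. No LCHADD library reached the WT libraries of either sex. Ifi27 changed by -0.34 (SE 0.12, adjusted p = 0.041) in females, -0.60 (SE 0.12, adjusted p = 0.0035) in males and -0.47 (SE 0.08, adjusted p = 4.4e-04) in the mean. Bst2 had 206, 299 and 213 normalised reads in the 3 WT females and 137, 174 and 186 in the LCHADD females, and 201, 282 and 196 in the WT males and 191, 176 and 193 in the LCHADD males. Bst2 (tetherin), which holds budding viruses at the cell surface, did not overlap between genotypes, though in males the gap between LCHADD male 3 and WT male 3 was small. Bst2 changed by -0.52 (SE 0.17, adjusted p = 0.030) in females and -0.39 (SE 0.12, adjusted p = 0.019) in the mean, and its value in males was -0.26 (SE 0.17, adjusted p = 0.34). Ifi35, which partners Nmi, changed by -0.39 (SE 0.11, adjusted p = 0.014) in the mean and passed in neither sex in the fit of all 12 libraries, though it did in males with the male libraries alone (adjusted p = 0.049).

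Among the female calls that of Ifi27 was lost with the most single libraries left out, namely without WT female 1 (adjusted p = 0.073), WT female 2 (0.15), WT female 3 (0.054), LCHADD female 1 (0.17) or WT male 2 (0.052). Bst2 was lost in females without WT female 2 (0.16) or LCHADD female 1 (0.13), and in the mean without either of these (0.056 and 0.052) or WT male 2 (0.055).

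Among effectors that did not pass in a genotype comparison, Rsad2 (viperin), which makes a chain-terminating nucleotide, had 244 ± 40.2 and 270.3 ± 27.4 in WT and LCHADD females and 258 ± 12.3 and 221 ± 18.7 in males (SD, n = 3). The oligoadenylate synthetase family members Oas1a and Oasl2 had mean changes of -0.31 (SE 0.23, adjusted p = 0.30) and -0.17 (SE 0.14, adjusted p = 0.35), Xaf1, a promoter of cell death, had -0.25 (SE 0.12, adjusted p = 0.11) and Ifi44 had 0.03 (SE 0.15, adjusted p = 0.90). Without WT male 1, which had the lowest Oas1a value, Oas1a passed in the mean (adjusted p = 0.046). Rtp4 had 43.8, 76.3 and 58.2 normalised reads in the 3 WT females and 89.7, 66.0 and 95.1 in the LCHADD females, and 58.8, 55.5 and 52.8 in the WT males and 47.9, 44.6 and 46.7 in the LCHADD males. Rtp4, an inhibitor of viral replication, leaned upward in LCHADD females and downward in LCHADD males, with an overlap in females and none in males. Its changes were 0.50 (SE 0.21, adjusted p = 0.080) in females and -0.26 (SE 0.21, adjusted p = 0.45) in males, and it passed in females without WT female 2 (0.029) or LCHADD female 2 (0.033).

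Parp9 and Dtx3l form a pair that adds ADP-ribose and ubiquitin to proteins and share a start region, and Parp14 is a larger relative. Parp14 had 420.2, 443 and 448 normalised reads in the 3 WT females and 353, 311 and 360.2 in the LCHADD females, and 400.4, 507 and 416 in the WT males and 370.0, 351 and 387 in the LCHADD males. All 6 LCHADD values were below the WT values, and the log2 change of Parp14 was -0.36 (SE 0.10, adjusted p = 0.016) in females, -0.25 (SE 0.10, adjusted p = 0.12) in males and -0.30 (SE 0.07, adjusted p = 0.0042) in the mean. Dtx3l had 331, 309 and 279 normalised reads in the 3 WT females and 295, 144 and 297 in the LCHADD females, and 397, 343 and 348 in the WT males and 233, 311 and 287 in the LCHADD males. The LCHADD males were below the WT males, and in females LCHADD female 2 was far below the other 5 libraries. Dtx3l missed the threshold in the mean at -0.39 (SE 0.15, adjusted p = 0.0502) and passed without LCHADD female 1 (adjusted p = 0.024), LCHADD female 2 (0.047), LCHADD female 3 (0.014) or LCHADD male 2 (0.049), and in males without LCHADD female 2 (0.017). It also passed in the mean with TMM scaling (0.046), DESeq2 (0.042), an added value of 5 (0.049), a filter of 50 (0.0496) or both LCHADD female 2 and WT female 3 left out (0.031), and in males with the male libraries alone (0.019) or with those 2 left out (0.016). Parp9 did not pass, with 217 ± 3.35 and 199 ± 66.7 in females and 236 ± 16.2 and 223 ± 25.8 in males and a mean change of -0.13 (SE 0.13, adjusted p = 0.45). The exons of Parp9 and Dtx3l overlap by 458 bases on opposite strands in GENCODE vM21, so without a stated use of strand their reads there cannot be told apart.

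**Figure D3:**
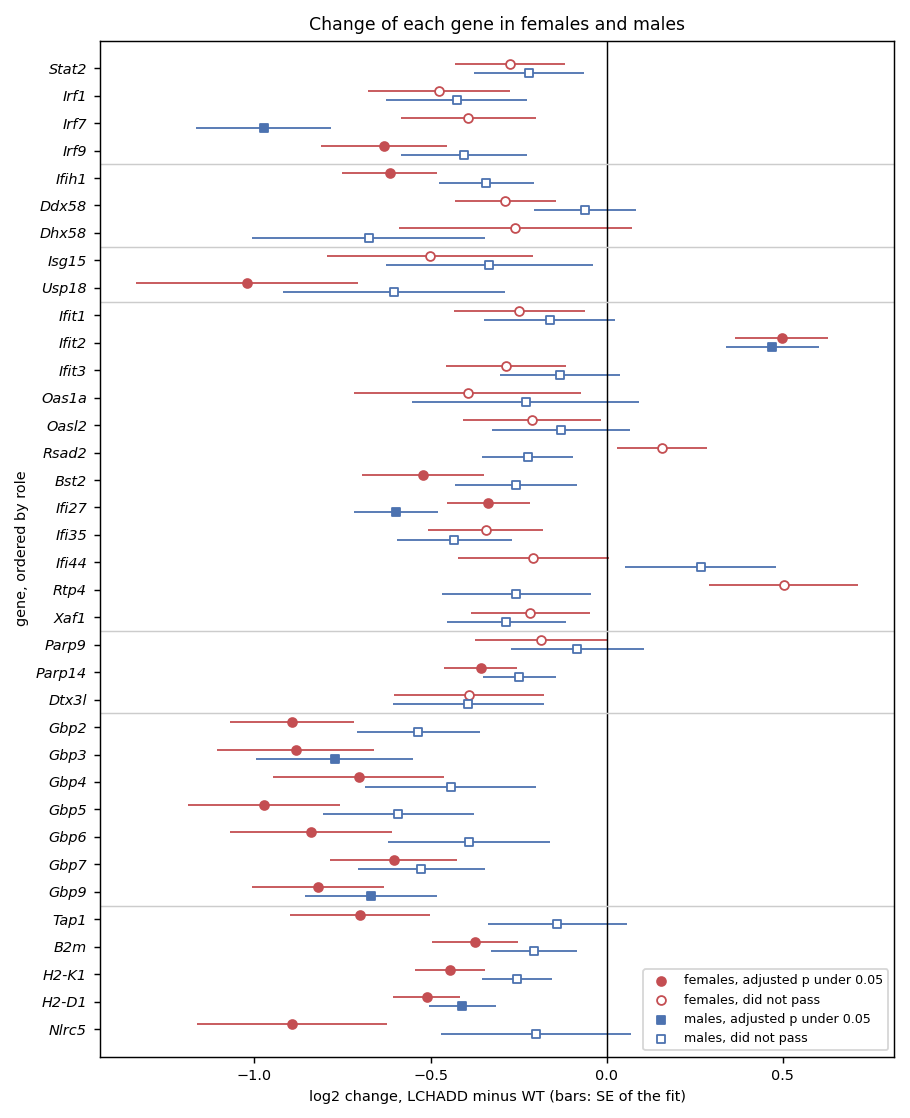
Log2 change, LCHADD minus WT, of the 36 genes in females (red circles) and males (blue squares), with the SE of the fit as bars; filled symbols passed at an adjusted p under 0.05. Nearly all symbols lie left of 0, with 18 filled to the left in females and 5 in males, and Ifit2 lies to the right in both sexes.

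The sexes were compared directly. The size of the genotype change was larger in females for 28 of 36 members, but the interaction of genotype and sex passed for 0 of 36 (limma), as it did with edgeR and with DESeq2, and 0.00721% of all tested genes passed it. At an unadjusted p under 0.05 there were 2 members, Irf7 and Rtp4. The interaction (female change minus male change) was 0.76 (SE 0.30, adjusted p = 0.43) for Rtp4 and 0.58 (SE 0.27, adjusted p = 0.50) for Irf7. So the larger count of calls in females is not shown to be a difference between the sexes. Between WT females and WT males 0 of 36 members passed by limma, edgeR or DESeq2, with 0 at an unadjusted p under 0.05, against 0.245% of all tested genes. Between LCHADD females and LCHADD males Rtp4 was higher in females, 0.82 (SE 0.21, adjusted p = 0.035), and no other member passed, where 2.65% of the tested genes were higher in females and 3.12% lower (368 and 432 genes, or 502 and 260 with nuclear scaling). That call was lost without any 1 of 8 libraries, LCHADD female 1 or 3 or any of the 6 male libraries, at adjusted p values of 0.0503 (without WT male 2) to 0.137 (without LCHADD male 2).

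The libraries of a group were not alike. Relative to the WT mean of the same sex, the median log2 difference over the 36 members was -0.43, -0.61 and -0.37 in LCHADD females 1, 2 and 3 and -0.43, -0.34 and -0.21 in the LCHADD males. It was -0.15, 0.12 and -0.00023 in the WT females and -0.06, 0.09 and -0.08 in the WT males. All LCHADD libraries were thus below all WT libraries on this measure, and LCHADD female 2 was the lowest. The WT libraries enter that mean themselves, so they lie near 0 by how the measure is made, and it restates the changes above. LCHADD female 2 was the lowest of its group for 25 of 36 members, WT female 1 for 25, and LCHADD male 1 for 21. WT female 2 was the highest of its group for 22 members, and LCHADD male 3 was the highest of its group for 23. LCHADD female 2 also had the lowest cardiomyocyte sum of the 12 libraries, 533896 normalised reads, against 717385 and 817601 in the other LCHADD females, and whether that bears on its interferon genes was not tested.

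The rest of the pathway was read from lists made by function. The ligands were at the edge of detection. Of 19 interferon genes, 16 had no read in any library, among them Ifnb1 and every listed alpha interferon gene but Ifna13, and the 19 together had 11 reads among 229 M. A gene with no read may still have had up to 3 reads' worth of RNA in the 12 libraries, by counting error only. Ifng, interferon gamma, had 5 reads in 3 libraries. No comparison of ligands between the genotypes was possible at this depth.

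The receptors and kinases came next. Of 9, 1 was higher and 1 lower in the mean of both sexes, beside 20.3% and 20.6% of all tested genes. Jak1, the kinase common to type I and type II receptors, had 2641 ± 193 and 3449.9 ± 151 normalised reads in WT and LCHADD females and 2504 ± 75.6 and 3655 ± 151 in males (SD, n = 3). It rose by 0.39 (SE 0.07, adjusted p = 6.6e-04) in females and 0.54 (SE 0.07, adjusted p = 1.3e-04) in males. Jak2, the partner kinase for interferon gamma, changed by -0.22 (SE 0.07, adjusted p = 0.019) in the mean. The gamma receptor chain Ifngr2 had a mean change of -0.04 (SE 0.06, adjusted p = 0.67). Of the STAT factors outside the 36 genes, Stat5b and Stat5a, which serve cytokines and growth hormone, changed by -0.49 and -0.37 in the mean (adjusted p = 6.2e-06 and 0.0049) and Stat6 by 0.21 (SE 0.07, adjusted p = 0.017). Stat3, which serves interleukin 6, had a mean change of -0.07 (SE 0.06, adjusted p = 0.37).

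Among 8 other interferon regulatory factors and their partners 3 were lower in the mean, beside 20.6% of all tested genes. These were Irf2 (-0.26), which opposes Irf1, and the corepressors Irf2bp1 (-0.43) and Irf2bp2 (-0.53), with adjusted p = 0.012, 0.0025 and 3.8e-04. Irf3, which starts interferon production, had a mean change of -0.12 (SE 0.10, adjusted p = 0.33). Nucleic acid sensing and its adaptors had 24 tested genes, with 3 higher and 1 lower, beside 20.3% and 20.6% of all tested genes. Rnaseh2b, a subunit of the nuclease that removes RNA from DNA, had 143 ± 27.9 and 234 ± 32.8 normalised reads in WT and LCHADD females and 113 ± 17.3 and 187 ± 40.1 in males (SD, n = 3), a mean change of 0.71 (SE 0.13, adjusted p = 4.6e-04). Tbk1, the kinase of Irf3, and Trim25, which activates RIG-I, changed by 0.24 and 0.17 (adjusted p = 0.037 and 0.033). Tlr3, a receptor for double-stranded RNA, changed by -0.39 (SE 0.11, adjusted p = 0.014), and Mavs, the mitochondrial adaptor of both RNA sensors, had a mean change of -0.19 (SE 0.08, adjusted p = 0.060). Mavs was lower in females, with a log2 change of -0.37 (SE 0.11, adjusted p = 0.015), and its value in males was -0.0043 (SE 0.11, adjusted p = 0.98). It was also lower in LCHADD females than in LCHADD males, by a log2 difference of -0.60 (SE 0.11, adjusted p = 0.0050), and the difference between the female and male genotype changes did not pass (adjusted p = 0.45). Of 8 negative regulators 4 were lower and 2 higher, beside the same 20.6% and 20.3%, and their mean changes ran from -0.62 to 0.52. Socs3, an inhibitor of Janus kinases, went from 72.9 ± 12.4 to 45.0 ± 4.19 in females and from 45.5 ± 11.9 to 30.9 ± 8.97 in males with a mean change of -0.62 (SE 0.18, adjusted p = 0.012), and Nlrx1, a mitochondrial protein that restrains Mavs, changed by -0.53 (SE 0.10, adjusted p = 8.5e-04).

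Interferon-stimulated genes outside the 36 were taken from a list of their own, also chosen with earlier results of these data known. Of 63 tested, 23 (36.5%) were lower and 0 higher in the mean of both sexes (limma), where 20.6% of all tested genes were lower. In females 17 (27.0%) were lower and 0 higher, beside 17.2% of all, and in males 10 (15.9%) and 0, beside 7.77%. At an unadjusted p under 0.05, 36, 25 and 18 were lower and 0 higher in the mean, females and males, and edgeR and DESeq2 also called 0 higher, with 23 and 21 lower in the mean. In females the share came near the background under 2 alternatives, 11 lower (17.5%) beside 14.1% of all with nuclear scaling and 10 lower (15.9%) beside 14.1% without LCHADD female 2 and WT female 3. Leaving out those 2 gave 20 lower and 1 higher in the mean. Their median log2 change in the mean was -0.31. Iigp1 had 563, 929 and 719.7 normalised reads in the 3 WT females and 301, 133 and 363 in the LCHADD females, and 707, 624 and 707 in the WT males and 302, 362 and 322 in the LCHADD males. Iigp1 and Igtp are GTPases that take part in the defence against intracellular parasites. The ranges of Iigp1 were apart in both sexes. Iigp1 changed by -1.56 (SE 0.27, adjusted p = 4.3e-04) in females and -1.05 (SE 0.27, adjusted p = 0.016) in males. Igtp had 279 ± 101 and 114 ± 18.5 normalised reads in WT and LCHADD females and 279 ± 49.0 and 167 ± 7.43 in males (SD, n = 3) and changed by -0.98 (SE 0.14, adjusted p = 7.9e-05) in the mean. Ly6e, a membrane protein that blocks coronavirus entry, changed by -0.47 (SE 0.07, adjusted p = 6.5e-05) and the nuclear body protein gene Sp100 by -0.52 (SE 0.08, adjusted p = 8.0e-05). Slfn5 and Rnf213, the most abundant that did not pass, had mean changes of -0.15 and -0.10 (adjusted p = 0.15 and 0.24). The 11 genes that were not tested, among them Mx1 and Cxcl10, had 442 reads in all.

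Of 23 other class I presentation genes, 16 were lower and 2 higher in the mean of both sexes, beside 20.6% and 20.3% of all tested genes. In females 11 were lower and 1 higher, beside 17.2% and 16.7%, and in males 5 and 1, beside 7.77% and 7.71%. The male count was 10 lower without LCHADD female 2 and WT female 3, where 12.2% of all tested genes were lower. Psme1 had 1689, 1706 and 1389.8 normalised reads in the 3 WT females and 814, 657 and 878 in the LCHADD females, and 1579.7, 1498 and 1499.6 in the WT males and 965, 1100.2 and 986 in the LCHADD males. Psme1, a subunit of the PA28 proteasome activator, was lower in every LCHADD library, with a log2 change of -1.03 (SE 0.11, adjusted p = 4.9e-06) in females and -0.59 (SE 0.11, adjusted p = 0.0019) in males. The non-classical class I genes H2-T23 and Mr1 changed by -0.57 (SE 0.08, adjusted p = 4.3e-05) and -0.77 (SE 0.11, adjusted p = 7.7e-05) in the mean. Psmb10 had 756, 758 and 692 normalised reads in the 3 WT females and 989.7, 1152 and 1013 in the LCHADD females, and 797, 772 and 854 in the WT males and 1158, 1009.8 and 1143 in the LCHADD males. Psmb10, a catalytic subunit of the immunoproteasome that is itself induced by interferon gamma, went the other way, with a log2 change of 0.51 (SE 0.09, adjusted p = 3.5e-04) in females and 0.45 (SE 0.09, adjusted p = 0.0028) in males. The chaperone Pdia3 had a mean change of -0.13 (SE 0.08, adjusted p = 0.19). Class II presentation, which is a property of professional antigen-presenting cells, had 9 tested genes, with 1 lower, Cd74, at -0.28 (SE 0.09, adjusted p = 0.017), and 0 higher by limma (also 0 by edgeR and DESeq2, and at an unadjusted p under 0.05). Beside these class II counts, 20.6% of all tested genes were lower and 20.3% higher. H2-Aa and H2-Eb1 had mean changes of -0.11 and -0.07 (adjusted p = 0.43 and 0.58).

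**Figure D4:**
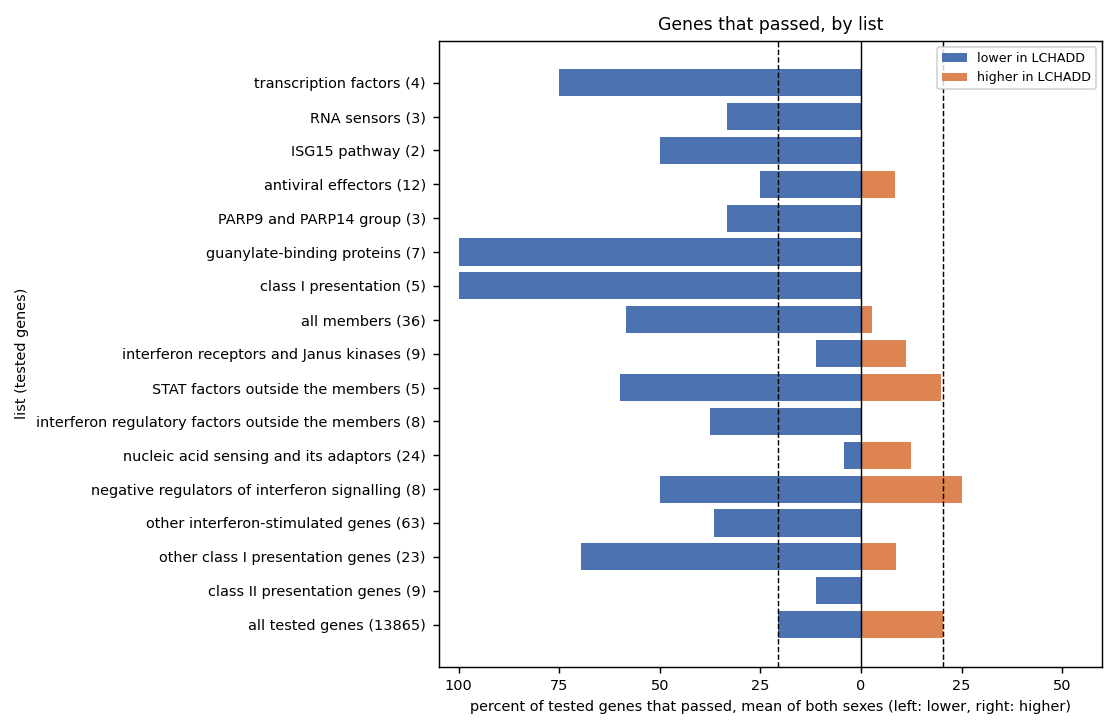
Percent of the tested genes of each list that passed in the mean of both sexes, lower to the left and higher to the right, with the number tested in brackets; the dashed lines mark all 13865 tested genes (20.6% lower and 20.3% higher). All 7 guanylate-binding protein genes and all 5 class I members were lower, and of the 63 other interferon-stimulated genes 23 were lower and 0 higher.

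Cell type markers were read beside the group, since in whole tissue fewer cells of a type and less RNA per cell cannot be told apart. In the mean of both sexes 20.6% of all tested genes were lower, which is the background for the marker counts. Endothelial markers were lower. Of 7, 5 were lower in the mean, with 12132 to 13314 summed normalised reads in the 6 WT libraries and 9742 to 11018 in the 6 LCHADD libraries. Tek and Pecam1 changed by -0.65 (SE 0.06, adjusted p = 1.3e-06) and -0.41 (SE 0.05, adjusted p = 6.3e-06), while Kdr and Flt1 had changes of -0.14 and -0.14 (adjusted p = 0.11 and 0.12). Fibroblast markers were lower too, 6 of 6, with 7945 to 9465 summed normalised reads in the 6 WT libraries and 5576 to 7110.5 in the 6 LCHADD libraries. Mural cell markers were lower for 5 of 5 tested, and the 6 listed had 8770.2 to 10431 summed normalised reads in the 6 WT libraries and 6581 to 9260.0 in the 6 LCHADD libraries. Erythroid markers, genes of red blood cells, were lower for 5 of 5, with 6969 to 12553 summed normalised reads in the 6 WT libraries and 1913 to 4486 in the 6 LCHADD libraries.

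Leukocyte markers did not pass as lower, apart from those of B cells. The 4 general markers, Ptprc, Laptm5, Coro1a and Cd53, had 439 to 535 summed normalised reads in the 6 WT libraries and 390.4 to 603 in the 6 LCHADD libraries, with 0 of 4 passing in the mean by limma, edgeR or DESeq2 (0 at an unadjusted p under 0.05) and Cd53 higher in females at 0.57 (SE 0.20, adjusted p = 0.040). In females their sums did not overlap, at 439 to 464 in WT and 530.3 to 603 in LCHADD. The 9 macrophage markers had 2219 to 3028 summed normalised reads in the 6 WT libraries and 2147 to 2891 in the 6 LCHADD libraries, with 0 of 9 passing in the mean by limma (1 at an unadjusted p under 0.05, and 1 higher by edgeR, by DESeq2 and by nuclear scaling), and Adgre1 and Cd68 higher in females, at 0.61 (SE 0.21, adjusted p = 0.033) and 0.66 (SE 0.21, adjusted p = 0.023). The 4 B cell markers were scarce, with 37.0 to 66.5 summed normalised reads in the 6 WT libraries and 12.0 to 30.2 in the 6 LCHADD libraries, and both that could be tested, Cd79a and Cd79b, were lower in the mean, at -1.05 (SE 0.32, adjusted p = 0.016) and -1.22 (SE 0.40, adjusted p = 0.025). T and NK cell markers were scarce as well, with 15.9 to 39.9 summed normalised reads in the 6 WT libraries and 36.6 to 54.4 in the 6 LCHADD libraries over 9 genes. Plasmacytoid dendritic cells, a main source of type I interferon, could not be followed, since Cox6a2 of their 4 markers is a heart muscle gene and Siglech, Ccr9 and Klk1 had 71 reads in all. Cardiomyocyte markers were lower for 5 of 7 in the mean. No marker of these lists was at 0 in all 12 libraries. The part of the endothelial, fibroblast, mural, erythroid, B cell and cardiomyocyte markers in the lower values of the group was not tested.

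**Figure D5:**
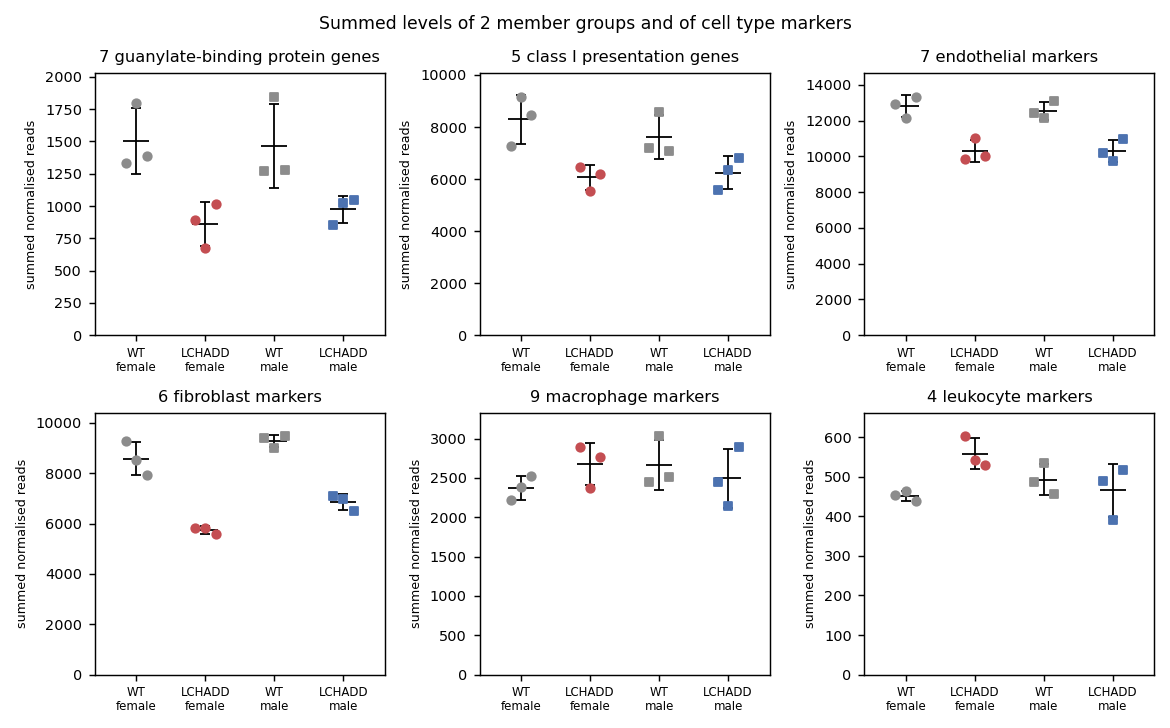
Summed normalised reads per library (circles, females; squares, males; grey, WT; colour, LCHADD) of the 7 guanylate-binding protein genes, the 5 class I genes and 4 sets of cell type markers, with group means and SD as black bars and axes from 0. The guanylate-binding, class I, endothelial and fibroblast sums are lower in every LCHADD library than in the WT libraries of its sex, and the macrophage and leukocyte sums overlap between the genotypes over the 12 libraries.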

How the data were processed

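RNA of 12 ventricle libraries was sequenced. Per the submitters' processing notes, bcl2fastq, DESeq2 and build GRCm39 were used; for the aligner, counting tool, annotation and strand, "not given in the sources used here" applies. The deposited signal values are read counts divided by a size factor per library, by the authors; 100% were whole multiples of 1 step per library (within 0.01), which recovered the reads; in WT male 1 that step is close to 1. Symbols and exon lengths came from GENCODE vM21 (51633 of 51912 IDs). Groups follow the titles.

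Log2 of the value plus 1 was fitted for 13865 genes (10 or more in 3 or more libraries) with limma 3.58.1 (eBayes, trend) in R 4.3.3 as 4 group means, adjusted over all genes. The fit was tested on simulated data, with 66 or 67 genes changed at each fold, far fewer than passed here. There it recovered 32.8%, 40.3% and 68.7% of the 1.5-fold changes in females, males and the mean. Of the calls, 2.24%, 5.33% and 3.43% were false. The added 1 shrinks changes of scarce genes. The members, lists and the libraries left out together were chosen with earlier results of these data known. A result of 1 further gene is not reported here. All 36 members could be named, and of each further list up to 4 genes that passed and up to 2 abundant ones that did not. Alternatives used edgeR 4.0.16 and DESeq2 1.42.0 on the recovered reads, other scalings (TMM, nuclear reads), filters and added values, each sex alone, a replicate block, and libraries left out.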

Additional observations from a re-analysis of the deposited data

How the results depend on the processing

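No called member changed sign under the alternatives run. Of 2436 member results over the 3 genotype comparisons, 2325 kept their side of the threshold, 67 lost it and 44 gained it. Members that did not pass in the main fit are among the 2436. The members called in females passed in from 15 of 23 alternatives (Ifi27) to 23 of 23 (such as Gbp2). In females 18 members were lower and 1 higher, and 11 were lower without LCHADD female 2 and WT female 3. Requiring a 1.5-fold change besides left 12 lower (33.3%) and 0 higher, where 8.81% of all tested genes were lower. Nuclear scaling gave 2 higher. Leaving out single libraries gave 9 to 19 lower and 1 to 2 higher, where 13.5 to 18.4% of all tested genes were lower. In males the main counts, 5 lower and 1 higher, became 11 lower with the male libraries alone, 9 lower without LCHADD female 2 and WT female 3, and 0 higher at 1.5-fold, with 2 to 9 lower and 0 to 1 higher when single libraries were left out. In the mean, 21 lower and 1 higher became 7 (19.4%) and 0 at 1.5-fold, where 7.46% of all tested genes were lower. With single libraries left out 17 to 23 were lower in the mean, where 18.1 to 21.8% of all tested genes were. The higher value of Rtp4 in LCHADD females than in LCHADD males went from 1 call to 0 with no filter (adjusted p = 0.070), with the LCHADD libraries alone (0.11) and with the replicate block (0.063), and to 0 or 1 with single libraries left out. The cause was not tested. Nlrc5 missed the threshold in the mean with no filter (0.052), and in females Usp18 (0.052) and Ifi27 (0.063) did. With the female libraries alone Ifi27 (adjusted p = 0.088), Usp18 (0.074), Gbp4 (0.073), Bst2 (0.071), Tap1 (0.055) and B2m (0.0503) were lost in females, and with nuclear scaling Ifi27 (0.10), B2m (0.065), Bst2 (0.057) and Gbp4 (0.053). Calls gained in males with the male libraries alone were those of Gbp2, Gbp5, Gbp7, H2-K1, Ifi35 and Dtx3l, and 12.3% of all tested genes were then lower in males. Gbp2 also passed in males with edgeR (0.043), DESeq2 (0.026) and a filter of 50 (0.048), Gbp7 with DESeq2 (0.042), and Rtp4 was higher in females with nuclear scaling (0.047).

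Over all genes, edgeR on the recovered reads called 4821 genes in females, 2149 in males and 5709 with the sexes averaged, where limma called 4692, 2146 and 5661. A 1.5-fold change besides left 2461, 1087 and 2033. The male count was 3342 with males alone, 3317 without LCHADD female 2 and WT female 3, and 1317 to 3293 with single libraries left out. The interaction, 1 gene, had 126 with DESeq2 and 0 to 186 with single libraries left out. The sex comparison in LCHADD, 800 genes, had 82 with the LCHADD libraries alone, 541 with the block and 215 to 1643 with single libraries left out; that in WT, 34, had 142 alone, 87 with DESeq2 and 17 to 105. Replicate numbers are shared by the groups. Between WT and LCHADD of the same sex, libraries with the same number did not deviate together (r of -0.054 to 0.031 over genes). The same number was not compared across the sexes, and whether equal numbers mark a shared day or litter was not tested. With the replicate block 18, 5 and 21 members were lower and 1 higher in the females, the males and the average. No member call but that of Rtp4 between the sexes changed with the block. Dropping the last base of the ISRE core gave a match in 13 of 26 members and in 7.48% of tested genes.

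Of the members, 3 libraries a group limit what can be seen: a gene such as Dhx58, with 11 to 29 normalised reads a library, needs a far larger change to pass than H2-D1. The interferon ligands could not be compared at this depth.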

Other observations

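Exons of several members overlap other genes in GENCODE vM21, and whether the counting used strand is not known. Gbp6 shares 29.0% of its exon bases with Gm43302 on the same strand, Rtp4 13.9% with Gm45338 and Gbp7 11.4% with the processed pseudogene Gm43802. Ifi35 shares 16.8% with the antisense gene Gm11626. Gbp4 and Gbp9 are close copies of Gbp8 and of each other, Ifit3 has the copy Ifit3b and Oas1a the copy Oas1g, so the values of these members are uncertain to the extent that reads were split.

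The summed T and NK cell markers were few but ordered by genotype in males, with 15.9, 24.7 and 25.1 normalised reads in the WT males and 39.6, 36.6 and 39.8 in the LCHADD males. In females they overlapped, at 32.1, 39.9 and 37.7 in WT and 38.3, 54.4 and 46.5 in LCHADD. With 2 of their 9 genes at testable levels, limma called 0 in each genotype comparison, with 1 at an unadjusted p under 0.05 in males and in the average, which edgeR and DESeq2 called in males.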
